A study of Mus musculus with 2 samples.

Results

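Annotated retained-intron transcripts are models of known genes in which all or part of an intron has stayed in the RNA. They were taken here as every known transcript that the deposited annotation types as retained intron and that had at least 1 long read in either of 2 libraries of mouse adrenal gland. Of 21848 such transcripts in the annotation, 3130 had reads (14.3%), out of 24248 annotated transcripts of all types with reads. Both libraries came from female B6CASTF1/J mice, the F1 hybrid of a C57BL/6 and a CAST parent, at 18 to 20 months of age. They form 1 group, for which the labels list no treatment, and 1 µg of total RNA went into each library. The labels number them biological replicates 1 and 2 but list one donor entry for both, while part of the notes names different females, so separate animals are not established. The p-values below compare libraries and measure counting error alone.

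Introns are removed while the RNA is still being made, and a polyadenylated RNA that keeps an intron is usually held in the nucleus or, once exported, cleared when the intron brings a premature stop codon into the reading frame. Some introns are kept on purpose for later splicing. These detained introns are best known in genes for splicing factors and the kinases that act on them, where they tie the amount of messenger RNA to splicing activity. The annotation class is broader than that: it also takes in short models whose first or last exon runs into an intron.

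The libraries held 1412947 and 933963 reads on annotated genes, in replicate 1 and replicate 2, as counts of long reads per model. Of 22 steroid synthesis genes, 20 were read in both, with 8.65% and 8.68% of those reads, and all 23 chromaffin genes of the medulla were read in both, with 1.47% and 1.16%. Reads of the genomic class, which have no splicing that fits the annotation, made up 3.54% and 5.87% of annotated-gene reads. Models that lack part of a known intron chain made up 12.2% and 13.0%.

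Nearly all introns that members held whole began with GT and ended with AG. The sequences below, from the GENCODE M21 transcript sequences on mm10, show 3 short ones in full, chosen because the whole intron fits in a line, 5′ to 3′ on the gene's strand, with the first and last pairs of intron bases in capitals. They are the 69-base intron 2 of Mdp1 (chr14:55660099-55660167, minus strand), the only intron of Pgp, of 92 bases (chr17:24471150-24471241, plus strand), and the 102-base intron 4 of Akap8l (chr17:32338355-32338456, minus strand). All 3 lie within the coding sequence.
Mdp1-202: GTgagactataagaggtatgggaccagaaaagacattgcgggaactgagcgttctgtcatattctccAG
Pgp-202: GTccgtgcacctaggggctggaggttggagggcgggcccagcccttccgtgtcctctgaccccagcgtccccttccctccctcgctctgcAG
Akap8l-206: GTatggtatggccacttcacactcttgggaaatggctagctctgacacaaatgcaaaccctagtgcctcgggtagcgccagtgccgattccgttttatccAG

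Longer introns are shown by their splice sites, for 5 splicing genes whose kept introns are described in the results. Each donor window holds 6 exon bases and 14 intron bases, with GT in capitals. Rsrp1 intron 3 covers chr4:134925433-134926734 on the plus strand, Clk1 intron 3 chr1:58420212-58421082 on the minus strand, Srsf5 intron 6 chr12:80947866-80949094 on the plus strand, Srsf7 intron 3 chr17:80204388-80205261 on the minus strand, and Sf3b1 intron 4 chr1:55014563-55016375 on the minus strand.
Rsrp1-204 donor: gtggagGTaagtgccttcag
Clk1-212 donor: cacgggGTatgagtgccttt
Srsf5-212 donor: tggcagGTttgttgaaatac
Srsf7-207 donor: aagcagGTatttaattaatg
Sf3b1-203 donor: cagatgGTaattctttccca
The matching acceptor windows hold the last 20 intron bases, with AG in capitals, and 6 exon bases.
Rsrp1-204 acceptor: aaaattctcttcctctttAGcattca
Clk1-212 acceptor: cgcccacttgacgtgtccAGaagagt
Srsf5-212 acceptor: cataattgtcttgtgttaAGgatctc
Srsf7-207 acceptor: ttttctaacttaaaaaatAGgtcacg
Sf3b1-203 acceptor: gttgctgttcttttctgcAGgaggga

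Members took few of the reads. They held 9547 reads in replicate 1, or 0.676% of annotated-gene reads (exact 95% Clopper-Pearson interval 0.662 to 0.689%), and 8923 reads in replicate 2, or 0.955% (0.936 to 0.975%). The mean was 0.816% ± 0.198 (SD, n = 2), and the share in replicate 2 was 1.41 times that in replicate 1 (Fisher's exact test, two-sided, p = 3.02e-122). The share of genomic-class reads, given above, was higher in replicate 2 as well. Marker genes of other cell types also differed: all 12 adipocyte genes were read in both libraries, with 1.16% of reads in replicate 1 and 0.757% in replicate 2, and 3 of 8 skeletal muscle genes, with 0.0743% and 0.000321%. Their part in the difference in member share was not tested. Reads on annotated nonsense-mediated decay transcripts were 0.215% and 0.268%, and reads on annotated processed transcripts 0.293% and 0.331%. Intervals and tests cover counting error only.

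Those reads were spread thinly over many models and heaped on a few. Of the 3130 members, 1485 (47.4%) had 1 read over both libraries, 1354 had 2 to 9, 279 had 10 to 99 and 12 had 100 or more. The top 3 models, of Cox4i1, Rsrp1 and Eprs, held 19.9% and 21.5% of all member reads. Without them, members still took 0.542% and 0.750% of annotated-gene reads. The members belonged to 2511 genes, 2020 of which had 1 member, and H2-Ke6 and Rpl10a had the most, 5 each. In all, 3083 members lay in protein-coding genes, 42 in noncoding genes and 5 in pseudogenes.

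By structure, most members did not hold a whole intron. An intron counted as whole when 1 exon of the member spans it and a transcript with a coding sequence splices it out, or, in genes without such a transcript, any transcript of another type. Such introns lay in an internal exon of 292 members (1579 and 1610 reads) and in the first or last exon of 556 members (1961 and 1989 reads). Another 1737 spliced members held a part of an intron or none (4645 and 4003 reads), and 545 members had a single exon (1362 and 1321 reads). Every one of the 4 classes had a higher share of annotated-gene reads in replicate 2. The internal class had 0.112% and 0.172%, the first and last exon class 0.139% and 0.213%, the partial class 0.329% and 0.429%, and the single-exon class 0.0964% and 0.141%.

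**Figure D1:**
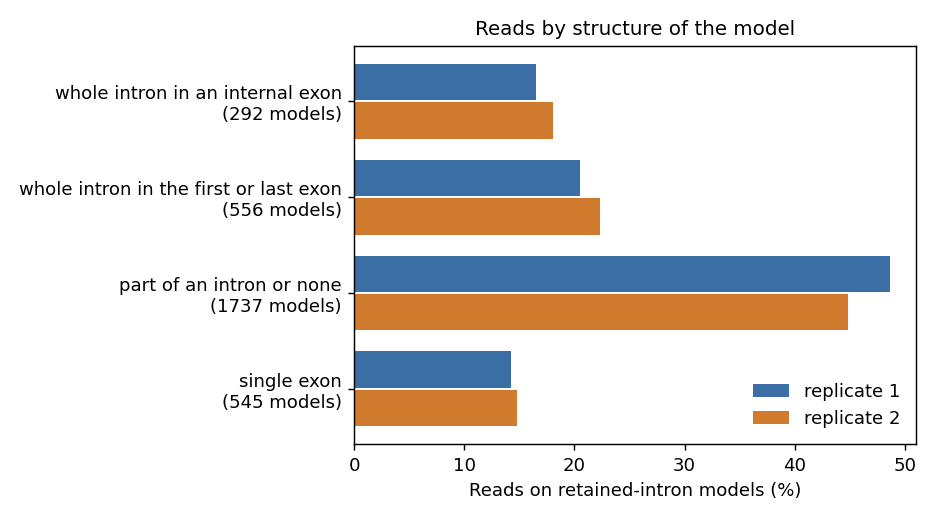
Percent of all reads on retained-intron models (x axis) by structure of the model, with 1 bar per library and the number of models beside each class. Models that held part of an intron or none took 48.7% and 44.9% of the member reads, and models with a whole intron in an internal exon 16.5% and 18.0%.

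Structure decides what a read on a member shows. Long-read counting programs credit a read to an annotated model by its chain of introns, and the deposited tables give no read ends. Of the members, 342 had an intron chain that no other annotated transcript of the gene holds, and these took 1655 and 1662 reads, 17.3% and 18.6% of member reads. The chains of 2243 members, with 6530 and 5940 reads, also occur inside another annotated transcript. A read on such a model can carry the intronic part or be a shorter copy of the other transcript, and the tables do not tell these apart. The 908 members with a measured intronic start had a median of 182 intron bases there, 50 or fewer in 115 of them. The 879 with a measured intronic end had a median of 495 intron bases, 50 or fewer in 23.

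Whole introns in internal exons were therefore followed at the intron itself, over every model of the gene. A read kept an intron when an internal exon of its model spanned it, and spliced it when its model had exactly that intron. Of 336 distinct introns in an internal exon of at least 1 member, 242 had at least 20 reads across them in each library. Their median percent kept was 3.28% in replicate 1 and 6.07% in replicate 2. The mean over libraries was at least 10% for 72 introns, at least 25% for 30 and at least 50% for 13, and it was under 2% for 66. In Maged2-209, Tap1-205 and Uaca-203, 3 introns were kept by every read counted in both libraries, and no read had exactly those introns spliced out. Reads that splice across an intron's place from other sites are not counted for any of the 242. Summed over the 242 introns, 3165 reads kept and 63435 spliced in replicate 1 (4.75% kept), against 3295 and 38092 in replicate 2 (7.96%). The percent kept was higher in replicate 2 for 175 introns, lower for 64 and equal for 3. Other introns of the same genes leaned the same way. Over 13567 other introns of coding transcripts in the same genes, 0.202% and 0.267% of reads kept the intron. The percent was higher in replicate 2 for 1211 of them and lower for 466, and 11886 (87.6%) were never kept by an internal exon. The choice of sets fixes part of this gap in level. Members had at least 1 read, so each of their introns was kept by a read. The other introns leave out those that annotated retained-intron transcripts hold whole.

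Rsrp1, which codes for an arginine- and serine-rich protein, had the most reads that kept an intron. Its 1302-base intron 3 was kept by 791 reads and spliced by 267 in replicate 1, 74.8% kept (72.0 to 77.4%), and kept by 718 and spliced by 302 in replicate 2, 70.4% (67.5 to 73.2%). More reads kept this intron than spliced it in both libraries. Clk1 codes for a kinase that phosphorylates SR splicing factors and is a well-known detained-intron gene. The 2 introns on either side of its exon 4 were kept together in Clk1-212. Clk1 intron 3 was kept by 32 reads and spliced by 12 in replicate 1 (72.7% kept) and kept by 34 and spliced by 10 in replicate 2 (77.3%), and intron 4 was kept in 68.2% and 77.3%. Low depth leaves wide intervals for Clk1, 57.2 to 85.0% and 62.2 to 88.5% at intron 3.

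Introns of 4 other splicing genes were kept in a wide range of shares. Srsf5, an SR protein, kept its 1229-base intron 6 in 75 reads and spliced it in 38 in replicate 1 (66.4% kept, 56.9 to 74.99%), against 93 and 16 in replicate 2 (85.3%, 77.3 to 91.4%). Srsf5-212 itself had 11 reads over both libraries, so most reads that kept the intron lay on other models. Srsf7, another SR protein, kept its 874-base intron 3 in 29.9% (21.8 to 39.1%) and 44.3% (33.7 to 55.3%) of reads. In Sf3b1, a U2 snRNP subunit that helps to hold the branch point, the 1813-base intron 4 was kept in 20.95% (13.6 to 29.99%) and 39.4% (28.0 to 51.8%). Replicate 2 was higher for these 3 genes, with intervals that overlap for Srsf7 and Sf3b1 and not for Srsf5. Ccnl2 codes for cyclin L2, a regulator of splicing. Ccnl2-205 starts an internal exon within the long intron that Ccnl2-201 splices out and keeps the 1664 bases from chr4:155818665 to 155820328. Counted against splicing from that donor only, those bases were kept by 106 reads and spliced by 5 in replicate 1 (95.5% kept), and kept by 176 and spliced by 4 in replicate 2 (97.8%). Reads of Ccnl2-201 skip the region and are not in these counts.

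Introns of 5 further genes were kept in shares from 0.379% to 67.4%, and Mdp1, Akap8l and Stub1 among them were chosen after their values were seen. The 69-base intron of Mdp1, a phosphatase gene, was kept in 31.6% (23.3 to 40.9%) and 33.8% (23.2 to 45.7%) of reads. The 102-base intron of Akap8l, which codes for a nuclear scaffold protein, was kept in 67.4% (52.5 to 80.1%) and 63.4% (46.9 to 77.9%). The 95% intervals of the libraries overlap for both introns. Akap8l-206 itself had 2 reads, so most reads that kept its intron lay on other models. Stub1, a ubiquitin ligase and co-chaperone gene, kept a 178-base intron in 11.55% (8.82 to 14.8%) and 18.95% (14.3 to 24.4%). Rpl10a, a ribosomal protein of the large subunit, kept its 326-base intron 3 in 3.83% (1.93 to 6.75%) and 9.39% (6.04 to 13.8%). In Cyp11a1, whose enzyme makes the first cut of cholesterol in steroid synthesis, the 899-base intron 3 was kept by 72 reads against 18910 spliced in replicate 1, 0.379% (0.297 to 0.477%), and by 121 against 9268 in replicate 2, 1.29% (1.07 to 1.54%). The intervals of the libraries do not overlap for Cyp11a1. Cyp11a1 reads of the genomic class were 15 and 6683 in the same libraries, and their part in this difference was not tested.

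**Figure D2:**
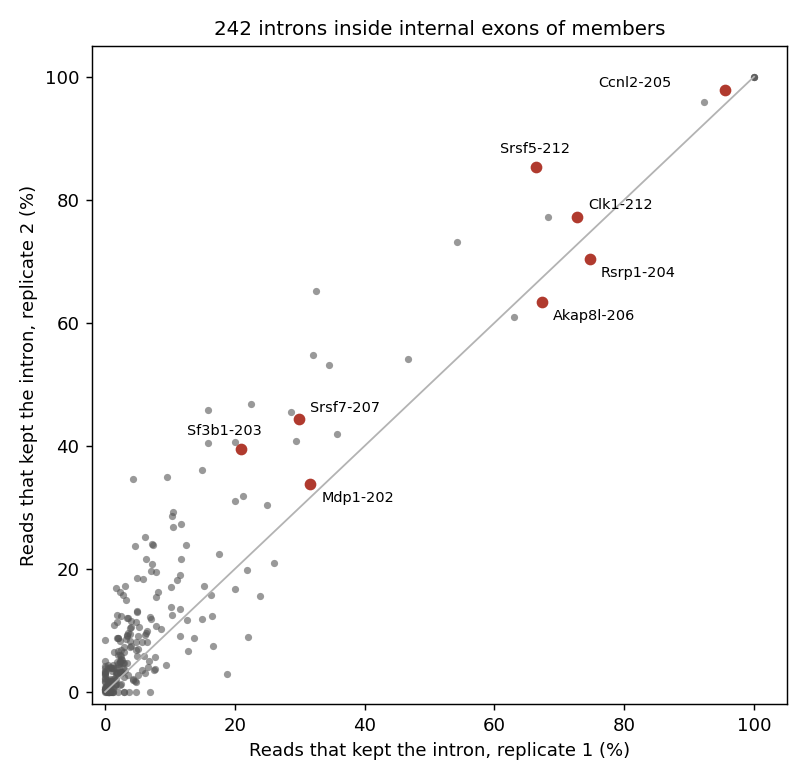
Percent of reads that kept each of 242 introns in internal exons of members, replicate 1 (x axis) against replicate 2 (y axis), with the line of equality and 8 introns named in red. Most points lie above the line: 175 introns were higher in replicate 2 and 64 lower.

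For members with a shared chain, the reads were laid out by how many introns of the longer transcript they held. Cox4i1 codes for subunit IV of cytochrome c oxidase. Cox4i1-204 starts 135 bases before an acceptor and holds the last 2 of the 4 introns of Cox4i1-201. It had 776 and 703 reads (38.7% and 44.1% of the gene), while chains of the last 1 intron had 2 and 11 reads, chains of the last 3 had 18 and 16, and the whole chain had 1139 and 821. Reads thus mostly held either the introns of the model or all 4, with few between. Where these reads begin is not known, so whether they carry the intronic bases of the model is not known either. The annotated intronic start of Cox4i1-204 is printed here, chr8:120672590-120672734 on the plus strand. The AG before the exon is in capitals, with 10 exon bases after it.
Cox4i1-204 start: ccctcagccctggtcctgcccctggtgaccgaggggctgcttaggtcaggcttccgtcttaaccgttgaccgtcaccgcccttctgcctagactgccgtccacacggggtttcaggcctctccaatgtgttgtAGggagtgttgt

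A like layout was seen in several other genes. Rpl5-204, of a ribosomal protein gene, holds the last 2 of 7 introns and begins 603 bases before the end of the 848-base intron that precedes them. It had 95 and 141 reads, against 2 and 3 with 1 intron, 3 and 1 with 3 introns, and 100 and 96 with all 7. Pepd-202, of the peptidase that splits dipeptides ending in proline, holds the last 2 of 14 introns. It had 147 and 51 reads, against 1 and 2 with 1 intron, 4 and 1 with 3 introns, and 319 and 169 with all 14. Fxyd1-213, of the sodium pump regulator phospholemman, reaches just 16 bases into an intron. It had 63 and 67 reads with none at either neighbouring length, and more than the 36 and 30 on the whole chain. Tkt-208, of transketolase in the pentose phosphate pathway, had 93 and 62 reads against 10 and 8 with 1 intron fewer and 7 and 5 with 1 more, beside 1300 and 1014 on the whole chain.

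Among members that follow the first introns of a longer transcript and end early, Eprs-204 had the most reads, and Eprs had the highest share of all measured genes. Eprs codes for the joined glutamyl- and prolyl-tRNA synthetase. Eprs-204 follows the first 19 of 31 introns of Eprs-201 and ends 15 bases beyond intron 20, whose 2431 bases it keeps (chr1:185407754-185410184, plus strand). It had 364 and 538 reads. Only 0 and 1 reads held the first 18 introns, 3 and 3 held the first 20, and 9 and 36 held all 31. Most Eprs reads thus held exactly these 19 introns. Scarb1-209 ends 544 bases into the intron after the first 10 of 12 in Scarb1, the receptor that takes up cholesterol esters from high-density lipoprotein. It had 54 and 73 reads, with none at 9 introns, 9 and 6 at 11, and 2063 and 1832 at 12.

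Not all shared chains stood out. Itm2c-202, of a membrane protein gene, had 147 and 88 reads, fewer than the 252 and 117 with 1 intron more. Slc25a3-204, of the mitochondrial phosphate carrier gene, had 32 and 34 reads, against 39 and 125 with 1 intron more. Eif2s2-203, of a subunit of initiation factor eIF2, had 35 and 39 reads between 46 and 44 with 1 intron fewer and 63 and 52 with 1 more. In these 3 genes, the chain with 1 intron more had more reads than the member in both libraries.

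The layouts above were chosen among the most read models, so the sum was also taken over every annotated retained-intron chain of a read gene, with or without reads. For 1831 chains that equal the last introns of a longer transcript, 2595 and 2131 reads had the chain itself, 981 and 790 had 1 intron fewer, and 2054 and 1511 had 1 more. Reads were present on 578 of these chains, 511 of the shorter neighbours and 517 of the longer ones. For 3182 chains that equal the first introns, 1287 and 1369 reads had the chain, 385 and 380 had 1 fewer and 535 and 512 had 1 more. Reads were present on 568 of these chains, against 273 and 269 of the neighbours. Of the chains of last introns, the kind that Cox4i1-204 has, 311 had more reads than both neighbours and 510 had fewer than the larger one. Of the chains of first introns, the kind that Eprs-204 has, these numbers were 463 and 379. Whether the authors filtered incomplete models, which make up the neighbours, is not given in the sources used here.

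**Figure D3:**
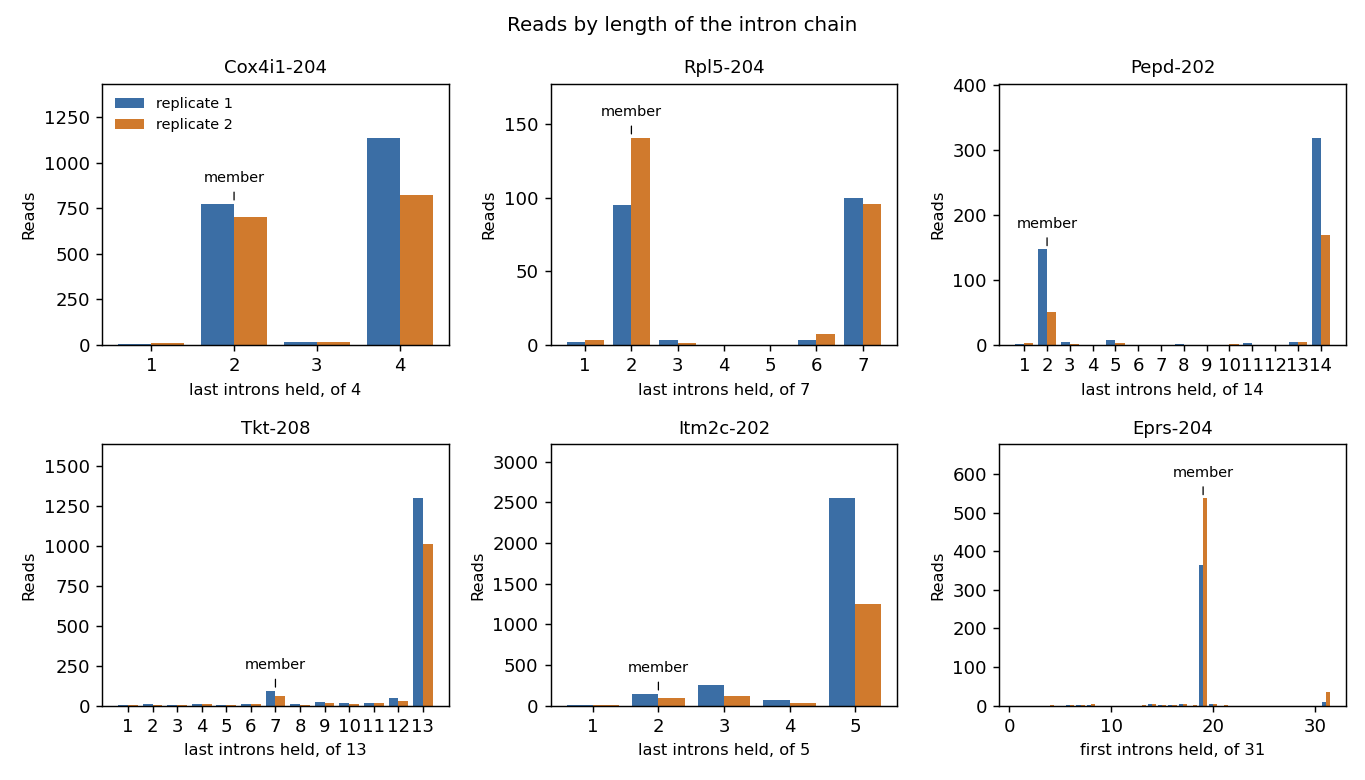
Reads (y axis) by the number of introns of the longer transcript that the read's model holds (x axis), counted from the last intron in 5 panels and from the first in the Eprs-204 panel, for both libraries. The retained-intron member is marked, with 776 and 703 reads for Cox4i1-204 and 364 and 538 for Eprs-204, and the last position is the whole chain.

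Single-exon members have no splice, and some of them span introns of their gene. The deposited tables give no read ends, so whether a read on such a model covered the intron is not known. Pgp-202, of the phosphoglycolate phosphatase gene, had the most reads, 166 and 125, or 20.96% (18.2 to 23.96%) and 26.1% (22.2 to 30.3%) of the gene. It spans the 92-base intron shown above, and spliced Pgp-201 had most of the remaining reads, 78.2% and 73.3%. Tssc4-207 spans 3 introns and had 28 and 20 reads, 47.5% and 40% of its gene. Bhlhe40-204, of a clock repressor gene, had 14 and 12 reads, 28.6% and 32.4%, and spans no whole intron. Genomic-class reads on Pgp numbered 1 and 0.

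Across genes, the retained-intron share was low with a long upper tail. The share is the percent of all reads of a gene, over all its models, that fell on its members. A minimum of 20 reads in both libraries left 6413 genes, of which 1801 had a member (28.1%). Their median mean share was 1.38% (quartiles 0.633 and 3.24%), with 1.15% in replicate 1 and 1.61% in replicate 2. The share was at least 10% in 136 genes, at least 25% in 40 and at least 50% in 5. The median was 2.68% in the 427 such genes with the fewest reads (40 to 99 over both libraries) and 0.318% in the 128 with the most. A gene enters these medians with 1 member read, which is a larger share of few reads than of many.

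The 15 genes with the highest shares mixed several kinds. Eprs led with 85.9% (82.2 to 89.0%) and 83.1% (79.9 to 85.9%), followed by Rsrp1 with 66.0% and 60.5%, Ss18l2 with 52.9% and 60.4%, Clk1 with 56.0% and 53.8%, and Rpl5 with 46.6% and 56.7%. These 5 genes kept a share over 46% in each library. Ralgapa1, a subunit of the Ral GTPase activating complex, had 56.0% and 40% at 25 reads in each library. Fxyd1 had 42.0% and 47.9%, Syn2 (synapsin II) 46.3% and 39.3%, Tssc4 47.5% and 40%, Cox4i1 38.8% and 44.8%, and Ngrn 45.2% and 32.8%. Ccl27a, a chemokine gene, had 62.5% and 33.3%, Cnot3, of the CCR4-NOT deadenylase complex, 26.1% and 65.2%, Hs6st1, a heparan sulfate sulfotransferase gene, 59.5% and 28.2%, and Cdk13, a kinase of RNA polymerase II, 51.4% and 27.8%. These last 4 genes had 23 to 39 reads in each library, and the widest gaps between libraries among the 15. None of the 4 passed the test of shares between libraries. Most member reads of Cnot3 and all of Hs6st1 lay on single-exon models that span no whole intron, Cnot3-208 and Hs6st1-202. With members of 2 or more exons only, the mean Cnot3 share was 4.35%, against 45.65% with all members.

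A member was the most read model in both libraries in 34 genes, 9 of which had at least 20 reads in each. The 10 most read of the 34 were Rsrp1, Eprs, Fxyd1, Tbc1d4, Tssc4, Clk1, Cdk13, Syn2, Ralgapa1 and Fry. Tbc1d4, a Rab GTPase activating protein gene of insulin signalling, had 34.95% and 28.6% of its reads on members, 36 and 16 reads. Fry had 14 of 25 and 15 of 19 (56.0% and 78.9%), and fell under the minimum in replicate 2.

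**Figure D4:**
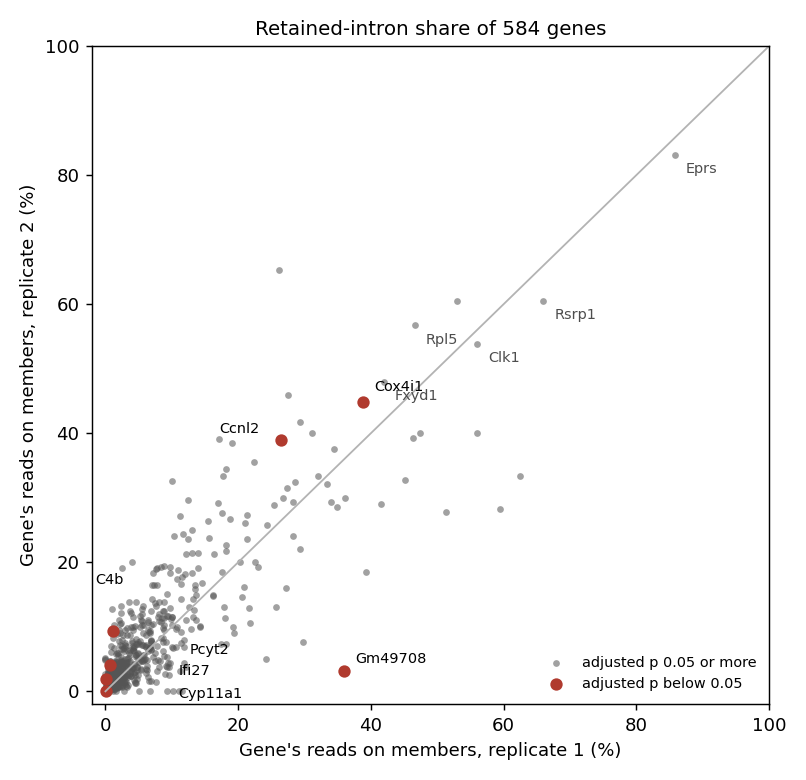
Percent of each gene's reads on retained-intron members, replicate 1 (x axis) against replicate 2 (y axis), for the 584 genes that met the read minimums, 20 gene reads per library and 5 member reads over both, with the line of equality. The 7 genes past the test are in red, among them Cox4i1 at 38.8% and 44.8% and Gm49708 at 36.0% and 3.23%; Eprs lies highest.

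Gene lists put these shares beside function. Among 42 other splicing regulators, all read, 27 had members, with 12.6% and 14.5% of the list's reads. Rsrp1 had 756 of these 939 member reads in replicate 1 and 680 of 958 in replicate 2. The median share of the list's 40 measured genes was 1.28%, beside 0% over all 6413 measured genes. A member was read in 65.0% of the list's measured genes, 66.7% of SR proteins and 64.5% of cytosolic ribosomal proteins. For hnRNP proteins it was 36.4% (8 of 22 genes) and for decay factors 33.3% (2 of 6). For genes known for detained introns it was 60.0% (3 of 5), beside 28.1% over all measured genes. The median share was 0% for hnRNP proteins and for decay factors. Among all measured genes, the percent with a member rose with gene reads. It was 20.92% at 40 to 99 reads over both libraries and 40.89% in the most read group. The lists were not matched for reads, and the part of read depth in these percents was not tested. Of 13 SR proteins, 8 had members, with 2.01% and 3.51% of reads and a median of 1.83% over 12 measured genes. Srsf7 had 11 of 125 and 14 of 101 reads on members (8.80% and 13.9%), Srsf1 7 of 109 and 6 of 97 (6.42% and 6.19%), and Tra2a 4 of 40 and 14 of 43 (10% and 32.6%). The Tra2a reads lay on Tra2a-203, a single-exon model that spans no whole intron. Of 26 hnRNP proteins, 8 had members, with 0.240% and 0.256% of reads. Of 6 genes known for detained introns, Clk1 had 28 of 31 and 28 of 33 member reads, Clk4 had 2 and 0, and Mat2a, the methionine adenosyltransferase gene, 1 and 3. Among 79 cytosolic ribosomal proteins, 50 had members, with 1.41% and 2.13% of reads and a median of 0.457%. Decay factors had 0.924% and 1.69%, with 4 and 7 of their 7 and 10 member reads on Smg5.

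Genes that carry adrenal function had few reads on members. Of 22 steroid synthesis genes, 2 had members, Scarb1 and Cyp11a1, and the list's share was 0.0483% and 0.116%. Of 23 chromaffin genes, 3 had members (0.0338% and 0.0276%), with 6 and 2 reads on Uchl1, 1 and 0 on Gata2, and 0 and 1 on the chromogranin gene Chga. Among 29 cholesterol supply genes, 11 had members (0.280% and 0.190%). A member was read in 2 of 19 measured steroid synthesis genes (10.53%) and in 3 of 15 measured chromaffin genes (20.0%). For cholesterol supply genes it was 11 of 28 (39.29%), above the 28.1% over all measured genes. Few reads on members thus did not mean few genes with members in that list. Soat1, which esterifies cholesterol, had 13 of 710 and 13 of 511 reads on members, and Srebf2, the regulator of cholesterol synthesis, 8 of 33 and 1 of 20. Adipocyte genes had 0.202% and 0.410%, with Fabp4 at 3.19% and 2.88%, capsule and fibroblast genes 0.594% and 0.675%, with Sparc at 2.87% and 3.19%, endothelial genes 1.91% and 2.07%, all on Egfl7, and 8 macrophage genes none. Immediate early and heat shock genes had 0.0699% and 0.131%. Skeletal muscle genes had 1050 and 3 reads in the libraries, and 0 and 1 on a member. Of 15 circadian clock genes read, 5 had members, with 5.66% and 6.51% of reads. Dbp had 7.64% and 13.2% and Tef 20.55% and 14.6%. Noncoding snoRNA host genes had 2.35% and 3.73%. Medians over the measured genes were 0% for the steroid, chromaffin, adipocyte, endothelial and clock lists, as for all genes. The number of transcripts annotated as retained intron differs between genes, and its part in these values was not tested.

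**Figure D5:**
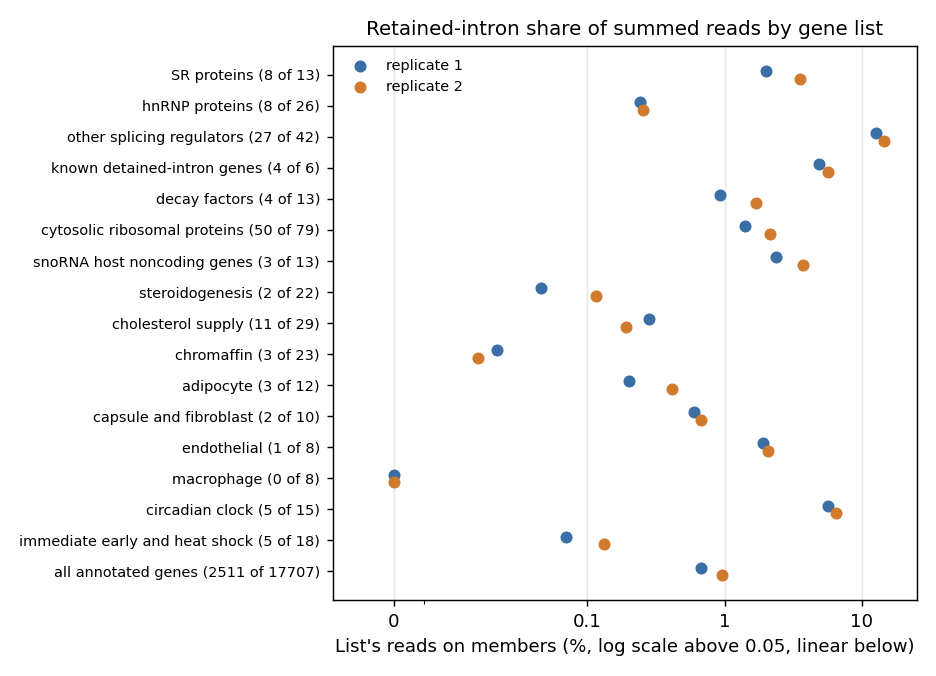
Percent of each gene list's reads on retained-intron members (x axis, log scale above 0.05 and linear below) for both libraries, with the number of genes with members out of genes read beside each name. Other splicing regulators had the highest values, 12.6% and 14.5%, and macrophage genes had 0; skeletal muscle, with 3 reads in replicate 2, is not drawn.

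Of the 3130 members, 2189 were read in replicate 1, 2162 in replicate 2 and 1221 in both (39.0%). Among members with 2 reads in all, 48.2% were in both libraries, with 3 reads 66.9%, with 4 reads 84.2%, with 5 to 9 reads 95.2% and with 10 to 19 reads 99.4%. Other annotated transcripts with the same totals gave 44.3%, 66.7%, 80.8%, 93.1% and 99.2%. At a fixed total, the depths of the 2 libraries largely set these percents. Their likeness between members and other transcripts therefore says little about agreement. Across 584 genes the shares in the 2 libraries had a Pearson r of 0.848 and a Spearman rho of 0.774. Across 291 members with at least 10 reads, log2 CPM (counts scaled to the annotated-gene reads of the library, with a prior of 0.5) had r = 0.715 and rho = 0.525, and across 9940 other transcripts r = 0.915 and rho = 0.913. Within 10 to 99 reads the values were 0.503 and 0.46 for 279 members and 0.67 and 0.744 for 6688 others. Across the 242 introns the percent kept had r = 0.934 and rho = 0.802. These correlations are across features of the same libraries and describe them only.

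Few genes passed the test of retained-intron share between libraries. Over 584 genes, with p from Fisher's exact test (two-sided) adjusted by Benjamini and Hochberg's method, 7 passed 0.05 (1.2% of those tested), and 69 had an unadjusted p under 0.05. Tested for every annotated transcript's share of its gene, 133 of 9184 passed (1.45%), and 7 of the 576 members among them (1.22%), a share near that of all transcripts. Of the 7 genes, 6 were higher in replicate 2. Cox4i1 had 38.8% (36.7 to 41.0%) and 44.8% (42.3 to 47.3%), adjusted p = 0.0367 by Fisher's exact test. Ccnl2 had 26.4% (21.8 to 31.4%) and 38.9% (33.9 to 44.1%), with the same adjusted p. C4b, a complement gene, had 2 of 179 and 16 of 171 reads on members, and Pcyt2, of phosphatidylethanolamine synthesis, 5 of 678 and 19 of 462. Ifi27, an interferon-induced gene, had 1 of 998 and 11 of 563, and Cyp11a1 had 5 of 27214 and 20 of 17278. Gm49708, a noncoding gene, was the one that was lower in replicate 2, with 18 of 50 and 1 of 31. The gaps ran from under 0.1 percentage points in Cyp11a1 to over 30 in Gm49708.

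Scaled to library size, members leaned toward replicate 2. An exact binomial test on TMM-scaled totals, adjusted over 10231 annotated transcripts with at least 10 reads, called 1147 of them (11.2%), 401 higher in replicate 2 (3.92%) and 746 higher in replicate 1 (7.29%). Of the 291 members tested, 24 passed (8.25%), 20 higher in replicate 2 (6.87%) and 4 higher in replicate 1 (1.37%). Their median log2 ratio of replicate 2 over replicate 1 was 0.37, beside -0.13 over all transcripts tested. With spike-in totals as the scale the median over all transcripts was -0.43 and over members 0.07, and 23 members passed, 14 higher in replicate 2 and 9 higher in replicate 1. With a common dispersion from the same libraries (coefficient of variation 23.1%), edgeR's exact test called 0 of the 291 members, 25 of which had an unadjusted p under 0.05, and 25 of all 10231 transcripts.

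The members with the largest differences by the binomial test were read little in one library. Ifi27-209 had 1 and 11 reads (log2 ratio 3.47, adjusted p = 0.00638 by the exact binomial test) and C4b-203 had 2 and 16 (3.26, adjusted p = 8.41e-04). Among well-read members, Eprs-204 had 258 CPM in replicate 1 and 576 in replicate 2 (log2 ratio 1.10, adjusted p = 2.49e-27), Rpl5-204 67.2 and 151 (1.10), and Ccnl2-205 60.2 and 149 (1.24). Cox4i1-204 had 549 and 753 CPM (0.39) and Rsrp1-204 535 and 728 (0.38), while Pepd-202 was lower in replicate 2, with 104 and 54.6 CPM (-0.99). Ribosomal protein members Rpl14-202 (17 and 29 reads), Rpl10a-206 (7 and 22) and Rpl26-204 (3 and 11) were higher in replicate 2. These 3 were chosen here for having passed. Hoxb2-202, of a homeobox gene, had 19 and 2 reads, lower in replicate 2 with Gm49708-201 and 1700037H04Rik-204.

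The whole introns inside members were short. Over 1361 of them the median length was 256 bases (quartiles 113 and 670), and 278 (20.4%) had 100 bases or fewer. The 30869 other introns of coding transcripts in the same genes had a median of 1367 bases, with 5.43% of 100 or fewer. Introns of annotated retained-intron transcripts without reads, in genes past the same minimum of reads, were of like length, with a median of 232 bases over 3146. Short length thus went with the annotation class, read or not. In members, 98.2% of the introns began with GT and ended with AG, 12 with GC and AG, and 1 with AT and AC. The median GC content was 52.1%, beside 51.2% for the introns of unread models. The donor letters GTAAGT, searched at the first 6 intron bases on the gene's strand, opened 7.94% of the members' introns and 10.65% of those of unread models, and GTGAGT opened 16.5% and 15.2%. Most of the members' introns, 86.6%, lay within the coding sequence of the transcript that splices them out. The first intron of that transcript made up 20.4% in members and 6.45% in unread models, and the last 13.9% and 6.33%. Among introns in internal exons of members, the first and the last each made up 0.623%.

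Polyadenylation signals differed by structure. The letters AATAAA or ATTAAA were found on the transcript's strand in the last 50 bases of 72.6% of 17575 coding transcripts with reads, of 34.5% of members and of 16.95% of 8425 unread retained-intron models in genes past that minimum. Among members, the signal was present in 66.1% of those with a whole intron in an internal exon, in 23.7% of those with only their end in part of an intron, and in 21.7% of those with both ends in one. Single-exon members had it in 28.4%. The models' ends come from the annotation, and where the reads ended is not in the tables.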

How the data were processed

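Long-read RNA sequencing was applied to 2 adrenal gland libraries. Per the file headers and the text beside them, the authors deposited unnormalized read counts per transcript model on mm10 with GENCODE M21, in a table with TALON field names. The aligner, versions and read filters are not given in the sources used here. Both deposited annotations held the same 141862 transcripts, and all 21848 retained-intron transcripts had the exons of GENCODE M21. Spike-ins and gene models new to the annotation stayed out of totals.

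The members and gene lists were chosen with earlier results of these data known. Shares have exact 95% intervals. Tests were the per-gene Fisher test (20 gene reads in each library, 5 member reads over both) and the per-transcript binomial test with TMM factors of 0.978 and 1.02, both adjusted over all features tested at 0.05. Introns under 30 bases were not counted. The steps were tested on simulated data. Counts, introns and chain layouts beyond the share tests are descriptions, and the intron measure was added after the data were seen.

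Genes were named by rule: the 15 highest shares, the 15 most read members, up to 8 genes each way past the Fisher test, up to 3 per list, and up to 10 in which a member led. The genes named for kept introns alone (Mdp1, Akap8l, Srsf5, Stub1, Maged2, Tap1, Uaca), for layouts outside the most read (Slc25a3, and the model Eif2s2-203) and for the binomial test were chosen after their values were seen. Alternatives were other denominators, minimums and scalings, and members with an intron chain of their own, the last chosen after seeing the data. Tests ran in Python 3.11.15 with scipy 1.17.1, numpy 2.4.6 and pandas 2.3.3, scaling in edgeR 4.0.16 and DESeq2 1.42.0 under R 4.3.3, and plots in matplotlib 3.10.9.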

Additional observations from a re-analysis of the deposited data

How the results depend on the processing

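The mean share of annotated-gene reads on members, 0.816%, was 1.09% of reads on known models alone, 0.267% without members whose chain another transcript shares, and 0.1475% for members with a chain of their own. It ran from 0.676% to 0.955% when each replicate was left out. The 39.0% of members read in both libraries was 36.4% after thinning replicate 1, 47.1% for members with their own chain, and 74.2%, 97.2% and 99.7% at 2, 5 and 10 or more reads. The 7 genes past the share test became 0 of 1801 with a minimum of 1 member read (85 at an unadjusted p under 0.05) and 4 for members with their own chain (Ccnl2, Chmp7, Cyp11a1, Rpl10a). They were 6 to 9 under the other 5 settings. The 24 members past the binomial test were 15 with no read minimum, 0 by edgeR's exact test, and 16 to 25 under the other 4 settings. The median share of 1.38% was 1.77% at 10 and 0.9615% at 50 gene reads, and 1.15% to 1.61% without either replicate. Of the 3130 members, 1221 were in both libraries, 647 had 5 or more reads, and 2162 to 2189 remained without either replicate. The causes were not tested, apart from fewer members or other denominators by construction. For single named genes, known models as denominator moved the share by more than the spread between libraries in 36 of 65, C4b to 67.1% from 5.24%. No paired analysis was possible because the series has 1 group. A member with 0 reads in a library may lie at up to 2.12 CPM in replicate 1 and 3.21 in replicate 2, the limit of 3 reads.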

Other observations

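Host genes of small RNAs offered a further view of kept introns. Of the 1361 whole introns inside members, 29 hold an annotated snoRNA, scaRNA or miRNA on the same strand. In Gas5, a noncoding gene whose introns carry snoRNAs, 5 measured introns in internal exons were kept in 13.6% to 26.1% of reads in replicate 1 and 8.75% to 20.97% in replicate 2, lower in replicate 2 for each of the 5. These introns share reads, and the exact 95% intervals of the libraries overlap, for instance 14.3 to 41.1% and 11.7 to 33.2% at the 271-base intron 6.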
